A study of Bos taurus with 5 samples.

Results

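The loci described here lie between 20 and 26 Mb of cattle chromosome 10, part of the chromosome that holds the T cell receptor alpha and delta genes. All assembled transcripts whose deposited span had its midpoint in that interval were taken, and their levels were summed per locus. This gave 218 of the 31898 loci of the assembly, with 452 of 72812 transcripts, and 118 of the 218 averaged at least 1 FPKM (sequenced fragments per kilobase of a transcript, scaled to all fragments mapped). The block itself was chosen by the measured FPKM of loci between 24 and 25 Mb, which differed between the reciprocal crosses 50CSH and 50CSN, so that comparison, and every count or sum that rests on the levels of these 2 libraries between 23 and 25 Mb, is a description. The libraries came from white blood cells of peripheral blood, with 1 library for each of 5 cattle populations. The crossbreds descend from the Holstein dairy breed and from native Iranian cattle. Ancestry in 75C was 75 percent Holstein and 25 percent native. It was 50 percent of each in 50CSH, sired by a Holstein bull on a native dam, and in 50CSN, the reciprocal cross with a native sire. H and N are the purebreds, and the labels do not spell out these letters. No treatment, age or sex is labelled, and the number of animals behind each library is not stated.

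T cells recognise antigen through a receptor made of an alpha and a beta chain or of a gamma and a delta chain. In mammals the delta genes lie within the alpha locus, where many short variable segments stand in a row and are followed by joining and constant segments. A developing T cell joins a variable segment to a joining segment, so that RNA of a given segment in blood comes mainly from T cells that chose it. Cattle have large variable repertoires and many circulating gamma delta T cells. The files name transcripts by Ensembl ID or by position alone, and none of the 31460 Ensembl IDs could be matched to a gene symbol in the reference table used here. No locus below can therefore be called a receptor segment, loci are given by their deposited positions, and leukocyte markers could not be read. In bulk blood, fewer cells of a type and less RNA per cell cannot be told apart. Which genome build these positions refer to is not stated in the labels, and no sequence was read.

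The block was uneven along its length. Between 21 and 23 Mb and between 25 and 26 Mb most loci carried an Ensembl transcript and had middling to high levels. Between 23 and 25 Mb levels were mostly lower, and many loci were short or unannotated. From 23 to 24 Mb 11 of 20 kept loci carried an Ensembl transcript, and from 24 to 25 Mb 6 of 18 did. The 37 kept loci from 21 to 22 Mb had a median level of 12.1 FPKM (mean of the 5 libraries), the 25 from 22 to 23 Mb had 18.3 FPKM and the 15 from 25 to 26 Mb had 16.0 FPKM. The 20 loci from 23 to 24 Mb had a median of 3.56 FPKM and the 18 from 24 to 25 Mb a median of 2.92 FPKM. The first interval, from 20 to 21 Mb, held 3 kept loci. Of the 38 loci from 23 to 25 Mb, 21 had no Ensembl transcript, against 15.9 percent of all 13871 kept loci, and 21 had a span of their own under 1000 nt, 55.3 percent of them against 7.06 percent of all kept loci. Across the block 48 kept loci shared a deposited span with another kept locus, and 7 loci shared the span from 23534479 to 23776235. Reads of near-identical or overlapping copies are divided between such loci by a model, and their single values are uncertain.

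Levels varied more between libraries in the interval of short loci than over the table, which is a description only. The spread is taken over all 5 libraries. Levels of 50CSH and 50CSN in part of this interval took part in the choice of the block, so nothing is read from the excess there. From 23 to 25 Mb, 26 of 38 loci (68.4 percent) were at least 2-fold apart between their highest and lowest library on the log2(FPKM + 1) scale, against 14.4 percent of all kept loci. Among loci with a mean under 10 FPKM the share was 65.7 percent from 23 to 25 Mb and 20.9 percent over all such loci. Short spans went with this spread. Of all 979 kept loci with an own span under 1000 nt, 48.1 percent were at least 2-fold apart, and of the 21 such loci from 23 to 25 Mb, 17 were (81.0 percent). Over the rest of the block the count was 7 of 37 loci (18.9 percent) from 21 to 22 Mb. It was 7 of 25 (28.0 percent) from 22 to 23 Mb, 4 of 15 (26.7 percent) from 25 to 26 Mb and 0 of 3 below 21 Mb. Among block loci outside 23 to 25 Mb with a mean under 10 FPKM, 12 of 32 (37.5 percent) were at least 2-fold apart. That share, too, was above the 20.9 percent over all such loci. The median standard deviation over the 5 libraries was 0.57 (log2) from 23 to 25 Mb, 0.19 from 21 to 22 Mb and 0.20 over all kept loci. Read totals are unknown. Relative to H, the depth estimated from low values was 0.946 for 75C, 1.04 for 50CSH, 1.16 for 50CSN and 1.19 for N, and its part in this spread was not tested.

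**Figure D1:**
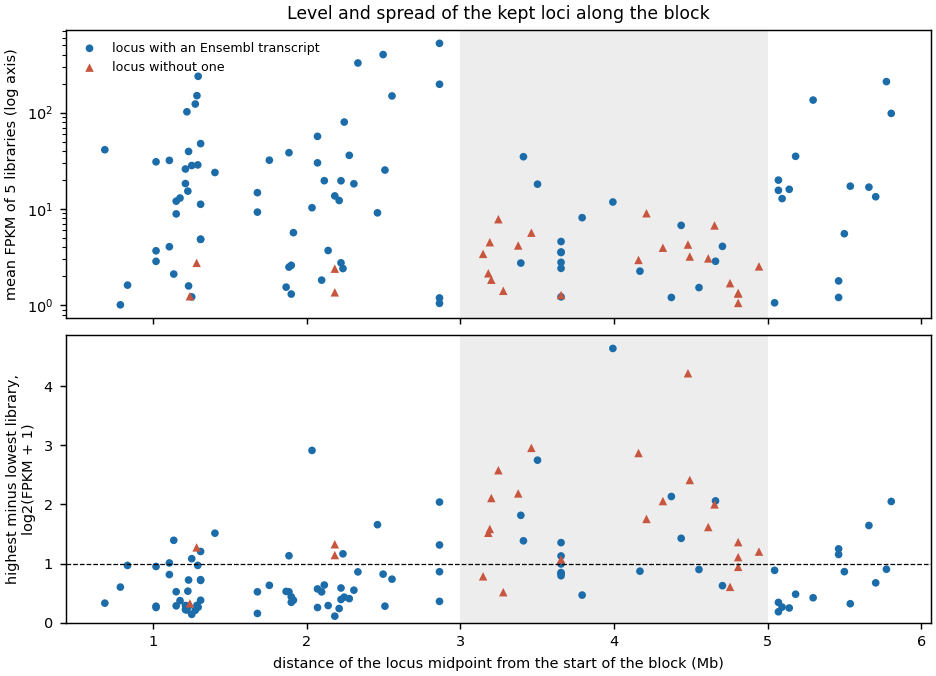
The 118 kept loci by distance of their midpoint from the start of the block (Mb), with the mean FPKM of the 5 libraries on a log axis (top) and the difference between highest and lowest library in log2(FPKM + 1) (bottom, dashed line at 2-fold). Points are loci with an Ensembl transcript and triangles loci without one; in the grey interval (23 to 25 Mb of the chromosome) 26 of 38 loci lie at or above the line.

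Summed over the kept loci, the block stood at 3898 FPKM in 75C, 3878 FPKM in 50CSH and 4439 FPKM in 50CSN, against 3556 FPKM in H and 3529 FPKM in N. All 3 crossbred sums lay above both purebred sums. As a share of each library's summed FPKM the order was different, with 0.462 percent in 75C, 0.491 percent in 50CSH and 0.520 percent in 50CSN, against 0.484 percent in H and 0.480 percent in N. Without the locus of highest mean, 75C stood at 96.6 percent of the mean of the 5 libraries, 50CSH at 101.3 percent and 50CSN at 109.2 percent, against 97.0 percent in H and 95.9 percent in N, so that 75C no longer lay above H. From 21 to 22 Mb the sums were nearly level, at 1095 FPKM in 75C, 1071 FPKM in 50CSH and 1099 FPKM in 50CSN, against 1060.1 FPKM in H and 1105 FPKM in N. As a share of library FPKM, that interval was at 0.1299 percent in 75C, 0.136 percent in 50CSH and 0.129 percent in 50CSN, against 0.144 percent in H and 0.1502 percent in N, every crossbred below both purebreds.

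The upper intervals differed in direction. From 22 to 23 Mb the sum was 2010.1 FPKM in 75C, 2043 FPKM in 50CSH and 2499 FPKM in 50CSN, against 1536 FPKM in H and 1633 FPKM in N. In the interval from 23 to 24 Mb it was 146 FPKM in 75C, 140.3 FPKM in 50CSH and 156 FPKM in 50CSN, against 85.6 FPKM in H and 103 FPKM in N. From 24 to 25 Mb it was 56.7 FPKM in 75C, 60.8 FPKM in 50CSH and 85.9 FPKM in 50CSN, against 53.6 FPKM in H and 43.0 FPKM in N. In these 3 intervals the crossbred libraries lay above both purebreds, with log2 ratios of crossbred to purebred means of 0.46, 0.65 and 0.49. As a share of each library's FPKM this order held from 22 to 23 Mb and from 23 to 24 Mb, whereas from 24 to 25 Mb 75C was at 0.00673 percent, 50CSH at 0.00770 percent and 50CSN at 0.0101 percent, against 0.00731 percent in H and 0.00585 percent in N, so 75C lay below H. Without the 2 loci of highest mean in each interval, crossbreds stayed above both purebreds from 22 to 23 Mb, but 75C lay below N from 23 to 24 Mb and below H from 24 to 25 Mb. At the upper end, from 25 to 26 Mb, the order was turned round, with 544 FPKM in 75C, 514 FPKM in 50CSH and 553 FPKM in 50CSN, against 782 FPKM in H and 604 FPKM in N, a log2 ratio of -0.37. That order came from the 2 uppermost loci, which start at 25772223 and 25793632. The other 13 loci of the interval summed to 288 FPKM in 75C, 306 FPKM in 50CSH and 312 FPKM in 50CSN, against 276 FPKM in H and 277 FPKM in N, with every crossbred above both purebreds. A two-sided exact permutation test of 3 against 2 libraries cannot go below p = 0.2, so it could not pass. This floor was reached by 7 of the 8 sums tested (Benjamini-Hochberg adjusted p = 0.229). The sums overlap, since those of 23 to 25 Mb and of the block repeat single intervals. Levels of 50CSH and 50CSN from 24 to 25 Mb also took part in the choice of the block. Nothing is therefore read from the test, and no other test was run on the sums.

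**Figure D2:**
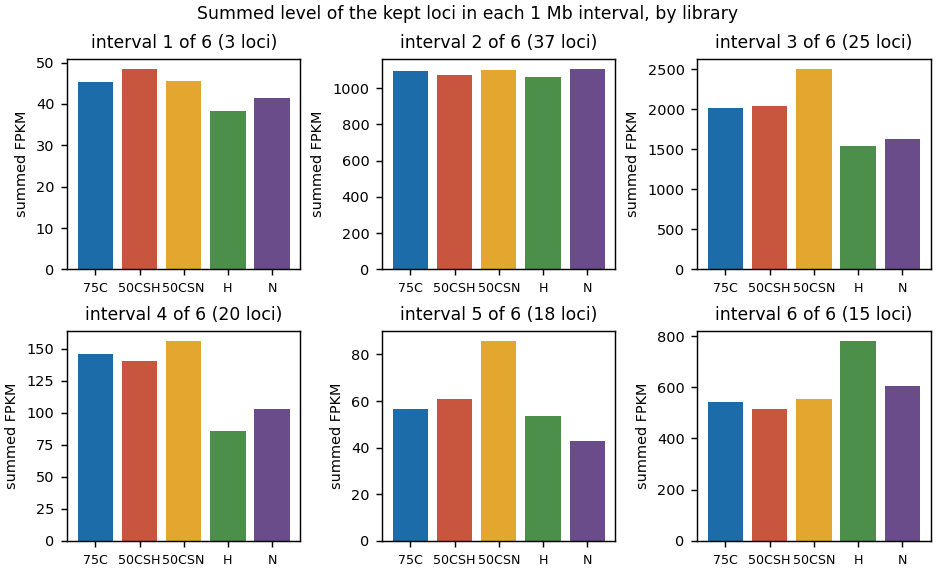
Summed FPKM of the kept loci in each 1 Mb interval of the block, from the lower end (interval 1) to the upper end (interval 6), by library; each bar is 1 library with no replicate and axes start at 0. Crossbreds stand above both purebreds in intervals 1, 3, 4 and 5, for example 2499 FPKM in 50CSN against 1536 FPKM in H, and below them in interval 6; as a share of library FPKM the groups overlap in intervals 1 and 5.

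The library in which each locus stood highest was counted, with no test. Of the 38 loci from 23 to 25 Mb, 16 were highest in 50CSN (42.1 percent), against 17.8 percent of all kept loci, 12 in 50CSH (background 19.9 percent), 3 in 75C (background 18.1 percent), 3 in H (background 19.4 percent) and 4 in N (background 24.9 percent). Among the 21 short loci with their own span, 10 were highest in 50CSN and 0 in H, where 23.5 percent and 15.5 percent of all such loci in the genome are highest. Of the 16 loci, 10 lie between 24 and 25 Mb, where the 50CSN levels took part in the choice of the block, so nothing is read from these shares. From 21 to 22 Mb the picture was another one, with 18 of 37 loci highest in N and 8 in 50CSN.

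The reciprocal crosses share their breed proportions and differ in the breed of the sire. Between 50CSH and 50CSN, 9 of the 118 loci stood at least 2-fold lower in 50CSH, against 1.56 percent of all kept loci, and 4 were at least 2-fold higher, against 1.25 percent. This contrast led to the choice of the block, so nothing is read from these shares. Of the 13 loci, 11 lay between 23 and 25 Mb, 4 of them higher and 7 lower. With loci above 0 in all 5 libraries alone, 6 were lower and 2 higher (together 7.14 percent, background 2.03 percent). With loci that have an Ensembl transcript, 4 of 93 were lower and 1 was higher (together 5.38 percent, background 1.68 percent).

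Lowest in 50CSH relative to 50CSN was the unannotated locus from 24492880 to 24493444, at 3.003 FPKM in 75C, 0.520 FPKM in 50CSH, 7.09 FPKM in 50CSN, 0.738 FPKM in H and 4.72 FPKM in N (log2 difference -2.41). The locus from 23369782 to 23383160 was at 4.51 FPKM in 75C, 2.66 FPKM in 50CSH, 9.47 FPKM in 50CSN, 2.98 FPKM in H and 1.30 FPKM in N (-1.52). Both were highest in 50CSN, but the first was next highest in N and the second in 75C. A short annotated locus from 23410194 to 23410822, with the highest mean of the interval from 23 to 25 Mb, was at 43.9 FPKM in 75C, 21.5 FPKM in 50CSH and 57.8 FPKM in 50CSN, against 25.5 FPKM in H and 25.7 FPKM in N (-1.38). There 50CSH lay just below the purebreds and the other crossbreds well above them. From 24654017 to 24654322 the levels were 7.48 FPKM in 75C, 5.55 FPKM in 50CSH and 13.9 FPKM in 50CSN, against 4.15 FPKM in H and 2.72 FPKM in N (-1.18). One of several loci sharing the span from 24763671 to 24852620 had 1.79 FPKM in 75C, 0.789 FPKM in 50CSH, 2.77 FPKM in 50CSN, 0.835 FPKM in H and 0.465 FPKM in N (-1.07). Outside the interval from 23 to 25 Mb, the annotated locus from 25658224 to 25659854 was at 10.2 FPKM in 75C, 7.68 FPKM in 50CSH and 17.7 FPKM in 50CSN, against 26.1 FPKM in H and 22.6 FPKM in N (-1.11), so that 50CSN was the crossbred nearest to the purebreds.

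Higher in 50CSH were 4 loci. The locus from 23191226 to 23191915 was at 3.15 FPKM in 75C, 8.31 FPKM in 50CSH, 3.57 FPKM in 50CSN, 2.11 FPKM in H and 5.49 FPKM in N (log2 difference 1.03). The locus from 24318019 to 24318703 was at 4.62 FPKM in 75C, 7.47 FPKM in 50CSH, 2.84 FPKM in 50CSN, 3.88 FPKM in H and 1.04 FPKM in N (1.14). Of the purebreds, N was the nearer to 50CSH at the first and H at the second. The other two were the locus from 23981040 to 24004113, at 6.45 FPKM in 75C, 23.8 FPKM in 50CSH, 5.45 FPKM in 50CSN and 23.4 FPKM in N with a listed 0 in H, and the locus from 24159346 to 24159625, at 1.87 FPKM in 75C, 5.26 FPKM in 50CSH, 1.39 FPKM in 50CSN and 6.30 FPKM in N, again with a listed 0 in H. At both, 50CSH and N were high, 75C and 50CSN were at intermediate levels and H had no estimate above 0. An exact 0 in these tables can be a failed estimate, so no fold is given against it.

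A value of exactly 0 in some library was found at 6 of the 118 kept loci, 5 of them between 23 and 25 Mb, and 5 of the 6 had a single transcript. Besides the 2 loci above, the locus from 24480879 to 24481969 was at 1.77 FPKM in 75C, 1.01 FPKM in 50CSN, 17.6 FPKM in H and 1.03 FPKM in N and listed at 0 in 50CSH. Here H was far above the other libraries. One of the loci sharing the span from 22589954 to 23138479 had 0.963 FPKM in 50CSH, 3.11 FPKM in 50CSN, 1.35 FPKM in H and 0.562 FPKM in N, and the locus from 24373133 to 24373689 was at 0.634 FPKM in 50CSH, 3.38 FPKM in 50CSN, 0.651 FPKM in H and 1.38 FPKM in N. Both were highest in 50CSN and listed at 0 in 75C. The locus from 23201146 to 23201756 was at 1.45 FPKM in 75C, 3.31 FPKM in 50CSH, 1.79 FPKM in 50CSN and 2.70 FPKM in H, with a listed 0 in N.

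The purebreds H and N were compared next. In H 5 of 118 loci were at least 2-fold higher than in N, against 1.46 percent of all kept loci, and 8 were at least 2-fold lower, against 1.86 percent. Of these 13 loci 10 lay from 23 to 25 Mb, 4 higher and 6 lower. Among loci above 0 in all libraries, the annotated locus from 23501757 to 23502470 stood highest in H relative to N. Its levels were 30.9 FPKM in 75C, 24.5 FPKM in 50CSH and 17.7 FPKM in 50CSN, against 13.7 FPKM in H and 3.75 FPKM in N (log2 difference of H from N 1.63), so N lay far below the other 4 libraries. At the upper end of the block, the locus from 25793632 to 25815393 reached 206 FPKM in H, against 101 FPKM in N (1.02). The unannotated locus from 23461906 to 23462434 was at 4.64 FPKM in 75C, 5.84 FPKM in 50CSH and 12.1 FPKM in 50CSN, against 0.687 FPKM in H and 5.17 FPKM in N (-1.87), and H lay far below the other 4 libraries.

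Lower in H among annotated loci was that from 21396406 to 21408785, at 23.7 FPKM in 75C, 25.1 FPKM in 50CSH, 15.7 FPKM in 50CSN, 13.8 FPKM in H and 41.3 FPKM in N (log2 difference of H from N -1.51). It was the widest difference between H and N from 21 to 22 Mb, and the crossbreds lay between the purebreds. The short annotated locus from 22460173 to 22460775 was at 8.31 FPKM in 75C, 12.1 FPKM in 50CSH and 12.2 FPKM in 50CSN, against 3.17 FPKM in H and 9.93 FPKM in N (-1.39), with H the lowest of the 5. Of the 7 kept loci that share the span from 23534479 to 23776235, one with a single Ensembl transcript was at 4.07 FPKM in 75C, 2.31 FPKM in 50CSH, 1.53 FPKM in 50CSN, 1.27 FPKM in H and 4.80 FPKM in N (-1.35). There 75C was the crossbred nearest to N. Higher in H, but by less than 2-fold on the log2(FPKM + 1) scale, was the short annotated locus from 23393268 to 23393848, with 1.295 FPKM in 75C, 2.67 FPKM in 50CSH and 6.07 FPKM in 50CSN, against 2.71 FPKM in H and 1.01 FPKM in N (0.88).

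A further question was how 75C differs from the 50 percent crosses. Against 50CSH, 5 of 118 loci were at least 2-fold higher in 75C (background 2.54 percent) and 4 lower (background 1.07 percent). After quantile normalization 3 were higher and 5 lower (together 6.78 percent, background 3.37 percent). Against 50CSN, 3 were higher (background 2.22 percent) and 6 lower (background 1.36 percent). The unannotated locus from 23247194 to 23247774 was higher in 75C than in both, at 18.2 FPKM in 75C, 7.68 FPKM in 50CSH and 8.02 FPKM in 50CSN, against 3.10 FPKM in H and 2.22 FPKM in N. The locus from 24660487 to 24661051 was lower in 75C than in every other library, at 0.322 FPKM in 75C, 4.43 FPKM in 50CSH, 2.12 FPKM in 50CSN, 2.97 FPKM in H and 4.51 FPKM in N. The second of these loci, and the one from 23201146 to 23201756 above, were named after their values were seen.

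Each crossbred was also compared with each purebred, and these comparisons share their purebred libraries. Against H, at least 2-fold higher were 11 loci in 75C (background 1.65 percent), 8 in 50CSH (background 1.73 percent) and 16 in 50CSN (background 2.15 percent), and lower were 7 in 75C (background 1.87 percent), 7 in 50CSH (background 4.17 percent) and 5 in 50CSN (background 3.66 percent). Against N, higher were 10 loci in 75C (background 2.09 percent), 6 in 50CSH (background 1.48 percent) and 13 in 50CSN (background 1.82 percent), and lower were 6 in 75C (background 2.62 percent), 9 in 50CSH (background 4.24 percent) and 13 in 50CSN (background 4.04 percent). Of the 16 loci higher in 50CSN than in H, 14 lay from 23 to 25 Mb, and so did 11 of the 13 higher in 50CSN than in N. Among the 93 block loci with an Ensembl transcript the split differed. Against H, 5 were higher and 6 lower in 75C (together 11.8 percent, background 2.44 percent). In 50CSH 2 were higher and 5 lower than in H (together 7.53 percent, background 4.35 percent). In 50CSN 6 were higher and 4 lower than in H (together 10.8 percent, background 4.1 percent). Against N, 2 of these loci were higher and 5 lower in 75C (together 7.53 percent, background 3.27 percent). In 50CSH 1 was higher and 5 lower than in N (together 6.45 percent, background 4.41 percent). In 50CSN 6 were higher and 10 lower than in N (together 17.2 percent, background 4.32 percent). After quantile normalization 8 loci were higher and 5 lower in 50CSH than in N, and 19 higher and 9 lower in 50CSN than in N.

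Crossbreds and purebreds as classes were compared with limma over all 13871 kept loci, with populations standing in for replicates, so that p-values measure only the spread among these libraries. No locus of the block passed a Benjamini-Hochberg adjusted p of 0.05 in either direction (background 0.0 percent higher and 0.0288 percent lower), and the smallest adjusted p in the block by limma was 0.115, shared by the loci starting at 22325540 and 21132866, the second of which is named only for this p. At an unadjusted p of 0.05 limma gave 16 block loci higher and 17 lower in crossbreds, which is 33 of 118, against 9.86 percent higher and 11.9 percent lower of all kept loci. That is 28.0 percent of the block, against 21.7 percent of all kept loci. These loci include some from 24 to 25 Mb, where levels of 50CSH and 50CSN took part in the choice of the block. Nothing is therefore read from the excess. The count was 20 without 50CSH (16.9 percent, background 13.9 percent), 18 without H (15.3 percent, background 13.7 percent) and 21 without N (17.8 percent, background 12.6 percent). Without 50CSN it was 17, and the block's 14.4 percent lay below the background of 15.9 percent. Without 75C it rose to 39 (33.1 percent, background 26.5 percent). Without overlap between the classes were 27 block loci with all 3 crossbreds above both purebreds (22.9 percent, background 21.0 percent) and 27 below (22.9 percent, background 22.3 percent). The block as a whole had about the background share of either. With a library fewer there is less to overlap, and the counts were 44 higher and 41 lower without H (background 31.0 and 34.9 percent) and 47 higher and 32 lower without N (background 32.4 and 31.6 percent). Without 75C the counts were 39 higher and 39 lower (background 26.9 and 32.5 percent). Without 50CSH they were 32 and 30 (background 25.2 and 25.7 percent), and without 50CSN 33 and 29 (background 26.4 and 25.6 percent). Parts of the block had shares unlike those of the whole: from 24 to 25 Mb 7 of 18 loci were higher and 0 lower, and from 21 to 22 Mb 4 of 37 were higher and 12 lower. These interval counts were not tested, and levels of 50CSH and 50CSN from 24 to 25 Mb took part in the choice of the block.

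The locus with the highest mean of the block was one with 5 transcripts in the span from 22589954 to 23138479. It stood at 674 FPKM in 75C, 499 FPKM in 50CSH and 796 FPKM in 50CSN, against 319 FPKM in H and 329 FPKM in N, a log2 difference of crossbreds from purebreds of 0.99 (standard error 0.21, limma adjusted p = 0.123). H and N were close together and all crossbreds were above them. A second locus of the same span, with 3 transcripts, had closer values, at 171 FPKM in 75C, 212 FPKM in 50CSH and 221 FPKM in 50CSN, against 178 FPKM in H and 202 FPKM in N. Its difference of 0.08, with a standard error of 0.14, was smaller than its error (limma adjusted p = 0.765). Just below this span, the locus of ENSBTAT00000019736 from 22325540 to 22340835 was at 344 FPKM in 75C, 372 FPKM in 50CSH and 431 FPKM in 50CSN, against 251 FPKM in H and 237 FPKM in N (log2 difference 0.64, standard error 0.12, limma adjusted p = 0.115). The short locus from 22496993 to 22497459 was at 359 FPKM in 75C, 463 FPKM in 50CSH and 525 FPKM in 50CSN, against 297 FPKM in H and 357 FPKM in N, and the locus from 22531964 to 22578183 was at 125 FPKM in 75C, 173 FPKM in 50CSH and 199.9 FPKM in 50CSN, against 119.6 FPKM in H and 127.6 FPKM in N. At both of these the 50 percent crosses were the highest and 75C lay close to N (limma adjusted p = 0.247 and 0.316). None of these 5 loci passed the threshold.

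Of the 6 loci with the largest difference and no overlap, 4 were short ones with crossbreds above purebreds. They were the locus from 23247194 to 23247774, with a log2 difference of 1.66 (standard error 0.38, limma adjusted p = 0.129), and the locus from 23501757 to 23502470, with 1.57 and 0.50 (limma adjusted p = 0.176). The locus from 24211087 to 24211400 was at 10.3 FPKM in 75C, 9.27 FPKM in 50CSH and 15.9 FPKM in 50CSN, against 5.65 FPKM in H and 4.02 FPKM in N (log2 difference 1.12, limma adjusted p = 0.129). The locus from 24654017 to 24654322 differed by 1.099 (limma adjusted p = 0.189). That every crossbred lay above both purebreds at these 4 loci follows from the rule that picked them, and none passed.

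Lower in crossbreds was the locus of ENSBTAT00000007811 from 22033252 to 22035617, at 6.70 FPKM in 75C, 2.65 FPKM in 50CSH and 2.88 FPKM in 50CSN, against 26.5 FPKM in H and 12.8 FPKM in N. Its log2 difference was -2.03 (standard error 0.44, limma adjusted p = 0.124), and the 50 percent crosses were lower than 75C. The locus from 25793632 to 25815393 has 3 Ensembl transcripts (ENSBTAT00000026126, ENSBTAT00000026127 and ENSBTAT00000052803). Summed over them it was at 82.1 FPKM in 75C, 49.1 FPKM in 50CSH and 52.4 FPKM in 50CSN, against 206 FPKM in H and 101 FPKM in N (log2 difference -1.26, standard error 0.36, limma adjusted p = 0.155). Its neighbour from 25772223 to 25773923 was at 174 FPKM in 75C, 159.7 FPKM in 50CSH and 189 FPKM in 50CSN, against 299.8 FPKM in H and 226 FPKM in N (log2 difference -0.58, limma adjusted p = 0.140). At both neighbours H was the highest library, N the next and every crossbred lower. The locus from 25658224 to 25659854, already described, differed by -1.05 (limma adjusted p = 0.171).

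**Figure D3:**
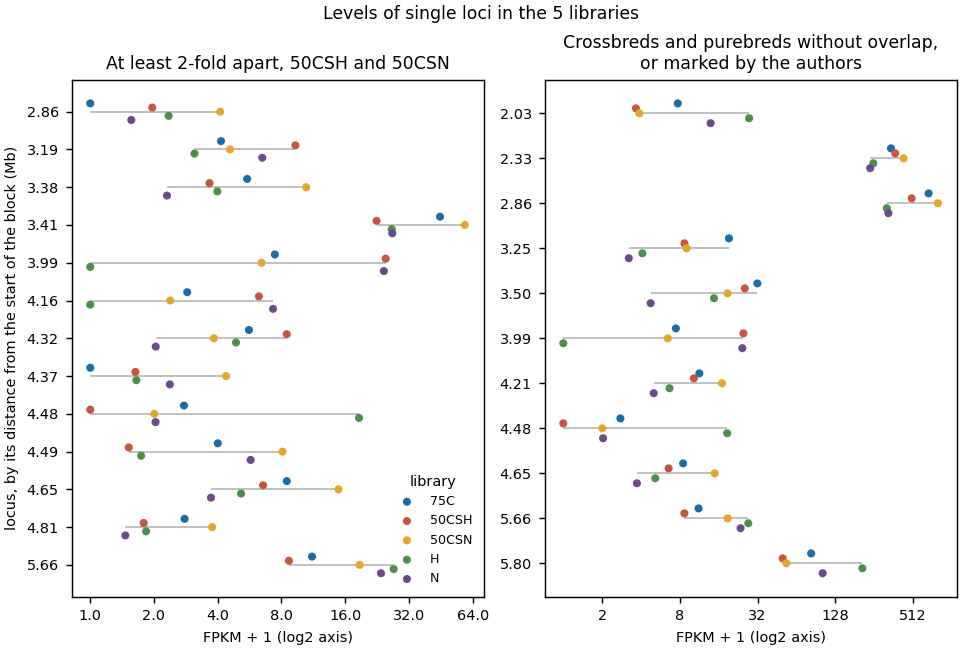
FPKM + 1 on a log2 axis in the 5 libraries, 1 row per locus named by its distance in Mb from the start of the block. At left are the 13 loci at least 2-fold apart between 50CSH and 50CSN. At right are loci picked for the 6 largest differences without overlap between crossbreds and purebreds, or marked significant by the authors. Each point is 1 library and the grey line joins lowest and highest; at the locus 2.33 Mb from the start all crossbreds lie right of both purebreds, and at the locus 5.80 Mb from the start all lie left of them.

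Levels of single transcripts were read at the locus of highest mean and at the uppermost locus of the block, which were picked after their values were seen. At the 5-transcript locus in the span from 22589954 to 23138479, the transcript of ENSBTAT00000046304 with the larger values was at 277 FPKM in 75C, 185 FPKM in 50CSH and 313 FPKM in 50CSN, against 105 FPKM in H and 70.1 FPKM in N. It made up 41.1 percent of the locus in 75C, 37.1 percent in 50CSH and 39.3 percent in 50CSN, against 32.8 percent in H and 21.3 percent in N. The most abundant transcript was at 314 FPKM in 75C, 262 FPKM in 50CSH and 409.8 FPKM in 50CSN, against 193 FPKM in H and 209 FPKM in N. Both were higher in every crossbred than in either purebred, by a wider margin at the first. At the locus from 25793632 to 25815393, the most abundant transcript was at 36.7 FPKM in 75C, 22.2 FPKM in 50CSH and 24.1 FPKM in 50CSN, against 98.2 FPKM in H and 47.9 FPKM in N, and made up 44.6 to 47.7 percent of the locus in all 5 libraries. Back in the span from 22589954 to 23138479, one transcript of the second, 3-transcript locus was at 51.3 FPKM in 75C, 50.5 FPKM in 50CSH, 94.5 FPKM in 50CSN, 69.3 FPKM in H and 22.3 FPKM in N, although the sum over the locus was nearly level. The division of reads between overlapping transcripts is a model's estimate, and its part in these shares was not tested.

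**Figure D4:**
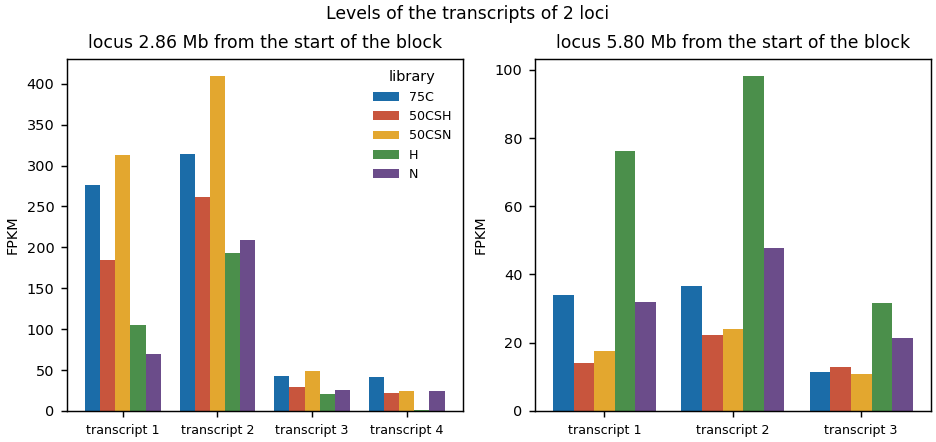
FPKM of each transcript above 0, by library, at the locus with the highest mean (left, 2.86 Mb from the start of the block) and at the locus nearest the upper end (right, 5.80 Mb from the start); each bar is 1 library with no replicate. At left both abundant transcripts are higher in the crossbreds, for example 277 FPKM in 75C against 70.1 FPKM in N, and at right all 3 are highest in H.

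The authors' own calls touched 8 loci of the block. In the authors' deposited table of pooled populations, 7 of the 238 block transcripts tested, from 6 loci, were marked significant (background 0.936 percent of all tested). Of the 7, 3 were higher and 4 lower in crossbreds. By the authors' deposited table the higher ones belonged to the loci starting at 22325540 (q = 0.00927), 22589954 (q = 0.0402, the ENSBTAT00000046304 transcript above) and 23501757 (q = 0.0358). The lower ones, by the authors' deposited table, belonged to the loci starting at 22033252 and 25658224 and, with 2 transcripts, at 25793632 (q = 0.00927 each). Between single populations the authors' deposited table marked 5 calls in the block. For 50CSH over H these were 1 transcript higher, at 23981040, and 2 lower, at 24480879 and 25793632 (234 block transcripts tested, background 0.176 percent). For 50CSN over H the authors' deposited table marked 1 lower, at 25793632 (228 tested, background 0.157 percent). For H over N it marked 1 lower, at 23981040 (239 tested, background 0.0796 percent). Of these 5 calls, 3 set a listed 0 against a positive value. The other 7 pairs in the authors' deposited table had no call in the block. Their backgrounds there were 0.0477 percent for 50CSH over 50CSN, 0.0574 percent for 50CSH over 75C, 0.0849 percent for 50CSN over 75C, 0.0758 percent for 75C over H, 0.183 percent for 75C over N, 0.151 percent for 50CSH over N and 0.144 percent for 50CSN over N.

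Some loci hardly varied. Least variable among annotated loci averaging at least 5 FPKM was a locus in the span from 22178131 to 22187449, at 13.5 FPKM in 75C, 14.3 FPKM in 50CSH and 13.6 FPKM in 50CSN, against 13.9 FPKM in H and 13.1 FPKM in N. A locus in the span from 21673264 to 21685007 had 9.03 FPKM in 75C, 9.12 FPKM in 50CSH and 9.91 FPKM in 50CSN, against 9.59 FPKM in H and 8.78 FPKM in N. One in the span from 21241517 to 21261766 had 29.98 FPKM in 75C, 29.4 FPKM in 50CSH and 27.3 FPKM in 50CSN, against 27.5 FPKM in H and 27.1 FPKM in N. All 3 lay below 23 Mb. Among the abundant loci, that from 21292116 to 21294778 was at 247 FPKM in 75C, 249 FPKM in 50CSH and 259.5 FPKM in 50CSN, against 218 FPKM in H and 216 FPKM in N, and that from 21283912 to 21287173 was at 153 FPKM in 75C, 148 FPKM in 50CSH and 165.5 FPKM in 50CSN, against 149 FPKM in H and 135 FPKM in N. Their ranges were narrow beside those of the short loci.

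The remaining 100 of the 218 members had a mean under 1 FPKM. Of these, 52 were listed at 0 in all 5 libraries, and the highest single value was 2.17 FPKM. At the lower edge of the block the first kept locus inside, from 20653822 to 20718135, was at 41.9 FPKM in 75C, 45.1 FPKM in 50CSH and 43.2 FPKM in 50CSN, against 35.7 FPKM in H and 40.2 FPKM in N. The last kept locus outside it, from 19817181 to 19849777, was at 14.8 FPKM in 75C, 13.9 FPKM in 50CSH and 13.7 FPKM in 50CSN, against 15.1 FPKM in H and 13.5 FPKM in N. At the upper edge the last locus inside is the one starting at 25793632, and the first kept locus outside, from 26022349 to 26040771, was at 1.33 FPKM in 75C, 1.73 FPKM in 50CSH and 1.07 FPKM in 50CSN, against 1.80 FPKM in H and 2.16 FPKM in N.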

How the data were processed

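Per the labels' protocols, white cells were isolated from a buffy coat, poly(A) RNA was selected and fragmented, and randomly primed cDNA was sequenced from both ends on an Illumina instrument, with no step that marks the strand. Tools named in the submitters' processing notes are Cufflinks 2.2.1.0 and TopHat2 2.0.9; for build, annotation and settings, the sources used here give nothing. Values in FPKM per transcript were deposited for 10 pairs of populations, and a library had identical values in the 4 comparisons it enters. The authors' deposited tables also give p-values and q-values. FPKM were summed per locus, those averaging at least 1 FPKM were kept, and values were compared as log2(FPKM + 1), which understates the change of low loci. Between 2 libraries loci at least 2-fold apart were counted, with no test. Crossbreds and purebreds were compared with limma 3.58.1 (R 4.3.3, mean-variance trend, two-sided, Benjamini-Hochberg adjustment over 13871 loci), tested on simulated data first. Sums, counts and figures used matplotlib 3.10.9, scipy 1.17.1, numpy 2.4.6, pandas 2.3.3 and Python 3.11.15. Relative depth is the commonest ratio of a library to H over low values of single-transcript loci; without read counts, counting error has no interval here.

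The block, its 1 Mb intervals and the rule for named loci were chosen with earlier results of these data known. The rule took the 8 loci of highest mean, those at least 2-fold apart between 50CSH and 50CSN, 5 highest and 5 lowest for H against N and 6 without overlap between classes (these above 0 in all libraries), those the authors marked, those listed at 0 with 5 FPKM or more elsewhere, and the 3 least variable. A marker list of leukocyte types could not be read, since 0 of the 31460 Ensembl IDs matched a symbol in the RefSeq table of ARS-UCD2.0.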

Additional observations from a re-analysis of the deposited data

How the results depend on the processing

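No paired analysis was possible because each population has 1 library and the labels give no replicate numbers. Under the 13 other settings run with limma, no block locus passed an adjusted p of 0.05. At an unadjusted p of 0.05 the count was 33 of 118, and it lay between 17 and 39 when 1 library was left out (39 without 75C, 20 without 50CSH, 17 without 50CSN, 18 without H, 21 without N); a class left with 1 library is assumed to vary like the other. The difference of crossbreds from purebreds at the 3-transcript locus starting at 22589954, 0.08 on the log2 scale, was -0.013 after quantile normalization and lay between -0.01 (without H) and 0.19 (without 75C). At the locus starting at 23981040 the fitted difference, 1.103, rests on the listed 0 in H and is no fold; it was -1.20 without H and 3.407 without N, where H alone is left. Neither passed the test in any of these. Alternatives for the interval sums were chosen after seeing the data. As a share of library FPKM the log2 ratio of crossbreds to purebreds was 0.048 from 20 to 21 Mb, -0.164 from 21 to 22 Mb and 0.027 over the block; without the 2 loci of highest mean it was 0.751, -0.086 and 0.037. Without its 2 uppermost loci the interval from 25 to 26 Mb gave 0.127.

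Counts of block loci at least 2-fold apart moved with the handling of low values and with what was counted, for causes that were not tested. In place of the 118 loci, 178 kept transcripts or the 93 loci with an Ensembl transcript were counted in some settings. Under each setting the block's share was above that of all loci in 10 of 10 pairs. The pairs share libraries, and levels of 50CSH and 50CSN took part in the choice of the block, so nothing is read from this. With a pseudocount of 0.1 they came to 24 for 50CSH over 50CSN, 24 for H over N, 21 for 75C over 50CSH, 23 for 75C over 50CSN, 24 for 50CSH over H, 25 for 50CSH over N and 32 for 50CSN over H (over the pairs, 17.8 to 32.2 percent of the block, against 5.50 to 10.1 percent over the whole table). At a minimum mean of 5 FPKM, which leaves 62 loci, they were 4 for 50CSH over 50CSN, 6 for H over N, 3 for 75C over 50CSH, 2 for 75C over 50CSN, 9 for 75C over H, 7 for 75C over N, 7 for 50CSH over H, 6 for 50CSH over N, 11 for 50CSN over H and 12 for 50CSN over N (3.23 to 19.4 percent, against 1.99 to 4.66 percent). Per transcript they were 21, 27, 26, 25, 35, 28, 41, 37, 38 and 42 in the same order of pairs (11.8 to 23.6 percent, against 8.90 to 14.5 percent). Loci with an Ensembl transcript gave 5 for 50CSH over 50CSN, 6 for H over N, 3 for 75C over 50CSH, 11 for 75C over H, 7 for 75C over N, 7 for 50CSH over H, 6 for 50CSH over N, 10 for 50CSN over H and 16 for 50CSN over N (3.23 to 17.2 percent, against 1.68 to 4.41 percent). Loci above 0 in all libraries gave 8 for 50CSH over 50CSN (over the pairs 5.36 to 19.6 percent, against 2.03 to 5.17 percent). The other 53 of these 90 counts stayed within 1.5 times the first.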
